A study of Mus musculus with 36 samples.

Results

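Lrig1 GL and Lgr5 GL cells, the tdTomato+ descendants of a pair of stem cell populations of mouse tail epidermis, were compared 1 week after a first wound (1w pw1), over the genes named in both count tables. The comparison holds 6 of the 36 libraries of the series, 3 of Lrig1 GL and 3 of Lgr5 GL cells. It covers 18864 genes: 18865 names stood in both tables, 1316 only in the Lrig1 GL table and 3722 only in the Lgr5 GL table, and the non-coding RNA Gm12415 was left out before scaling. Libraries and genes were chosen by column and gene name, so no measured value entered the choice. All mice, young adults of a study that used both sexes, carried the Rosa26-fl/STOP/fl-tdTomato reporter together with Lrig1-EGFP-ires-CreERT2 or Lgr5-EGFP-ires-CreERT2. Both crosses were given 4-hydroxytamoxifen once on the tail skin, so that cells with an active Lrig1 or Lgr5 locus in that week, and their descendants, were labelled. The unwounded groups (0w) were labelled in the same way and sampled 1 week later, at the time when the other mice received a full-thickness punch wound in the tail. Cells were sorted from an area holding the wound bed together with more distant hair follicles, so a library mixes cells that had entered the wound with cells that had stayed in the follicle.

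Lrig1 marks stem cells of the junctional zone (JZ), the upper part of the hair follicle (HF) that feeds the infundibulum (INFU) and the sebaceous gland, whereas Lgr5 marks stem cells of the lower bulge and hair germ that rebuild the hair shaft. Neither population normally supplies the interfollicular epidermis (IFE), but after a full-thickness wound both send progeny into the new IFE. Keratinocytes at a wound switch on Krt6a, Krt6b and Krt16, cornified envelope precursors of the Sprr family, glucose uptake and glycolysis, and cells that leave the follicle are known to lose their niche keratin Krt15.

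At 1w pw1 the Lrig1 GL libraries held 765252 to 1999352 counts and the Lgr5 GL libraries 2052347 to 4930580 counts. Gm12415 took 49.7, 40.5 and 12.04% of the Lgr5 GL counts and had no count in the Lrig1 GL libraries, which allows up to 3 counts in each. Without it and without genes of 1 table only, 764021 to 1996668 counts remained in Lrig1 GL and 1211681 to 4317429 in Lgr5 GL libraries. Levels are given as CPM, the counts scaled to a common library size, of these remaining counts, adjusted with the TMM method. Each population forms 1 table, so population, table and any batch tied to a table cannot be told apart in the direct difference. The libraries are numbered as replicates, and p-values rest on the spread between libraries of a group, estimated over all 36 libraries in 12 groups of population and time. Each library came from a small number of sorted cells and was amplified, so counts are of reads. In bulk libraries, fewer cells of a type and less RNA per cell cannot be told apart either.

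The RNA of the labelling genes was measured first, although a lineage label outlasts the expression that set it. Lrig1, a transmembrane inhibitor of EGF receptor signalling, stood at 125, 95.1 and 166 CPM in Lrig1 GL and at 100, 165 and 107 CPM in Lgr5 GL cells, so the groups overlapped (log2 difference 0.06 ± 0.35, edgeR adjusted p = 0.951). Lgr5, the R-spondin receptor of bulge and germ cells, stood at 0.99, 59.0 and 29.2 CPM in Lrig1 GL and at 42.6, 229 and 255 CPM in Lgr5 GL cells. Its log2 difference of -2.58 ± 0.84 did not pass (edgeR adjusted p = 0.0781), and it passed at 0.0458 with the length trend of each library removed. Before injury Lrig1 stood at 196 to 265 CPM in Lrig1 GL and 53.1 to 161 CPM in Lgr5 GL cells, and Lgr5 at 55.1 to 282 and 442 to 677 CPM. Both labelling genes were thus in the direction of the label at 0w in every library, whereas at 1w pw1 only Lgr5 still leaned that way. Krt5 and Krt14, keratins of basal keratinocytes, were high in every library of both populations, and the T cell genes Cd3e, Cd3d and Cd3g, the Langerhans cell gene Cd207 and the globin genes Hbb-bs and Hba-a1 were not among the genes named in both tables.

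Of 16652 genes tested, 599 differed between Lrig1 GL and Lgr5 GL cells at 1w pw1, or 3.6% of those tested, with 341 (2.05%) higher in Lrig1 GL and 258 (1.55%) higher in Lgr5 GL cells (edgeR quasi-likelihood test, adjusted p under 0.05 and log2 difference above 1 in size). The 3 libraries of one population lay wholly above the other in 333 of the 341 and in 250 of the 258 genes, and in 24.8% of all genes tested. Before injury, in other libraries of the same tables, 444 genes or 2.67% differed, 177 (1.06%) higher in Lrig1 GL and 267 (1.6%) higher in Lgr5 GL cells. That split turned to 387 against 206 when the length trend of each library was removed and to 350 against 203 when the GC trend was removed. These fits also brought the libraries to a common mean log2 level, so trend and scaling cannot be told apart in them. The median log2 difference of all genes at 0w went from -0.05 to 0.16 with the length and 0.17 with the GC trend removed. The call sets of 0w and 1w pw1 shared 68 genes in the same direction, which is 11.4% of the calls at 1w pw1 and 15.3% of those at 0w. Of these, 47 were higher in Lgr5 GL and 21 in Lrig1 GL cells. The 1 gene called in opposite directions was Gm26910, a non-coding transcript. At 1w pw1 DESeq2 called 1441 genes, edgeR fits over the 12 libraries of 0w and 1w pw1 or the 6 of 1w pw1 called 29 and 31, and 2 surrogate variables left 90 calls with 33 higher in Lrig1 GL and 57 higher in Lgr5 GL cells.

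**Figure D1:**
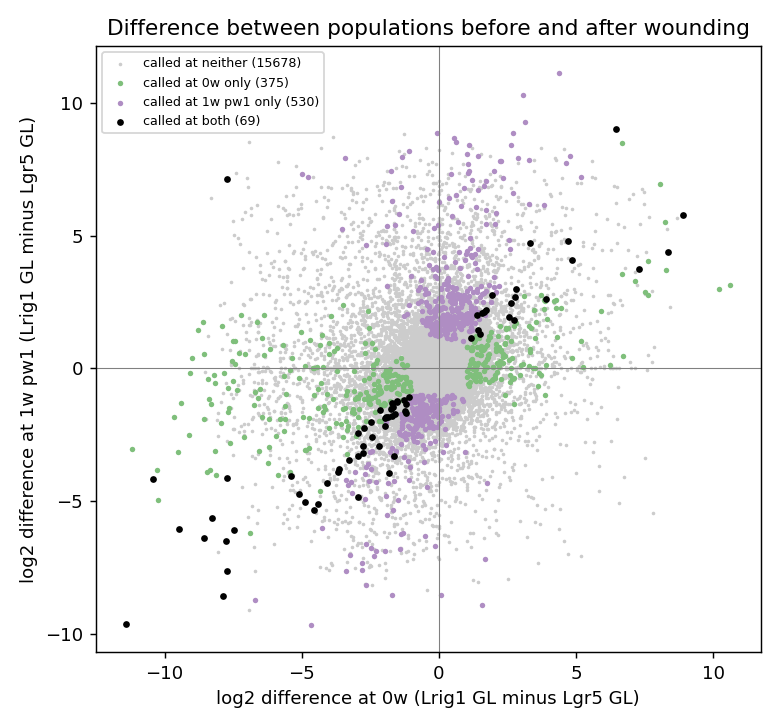
Log2 difference of every tested gene between Lrig1 GL and Lgr5 GL cells before injury (x axis) and at 1w pw1 (y axis), each point a gene and positive values higher in Lrig1 GL cells. Of the 69 genes called at both times (black), 68 have the same sign on both axes.

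Named here are called genes with a mean of at least 20 counts and no overlap between the libraries of the populations. The lack of overlap is thus part of the choice, and symbols of the Gm and Rik kind and clone names were passed over. Those higher in Lrig1 GL cells with the smallest p-values were Rif1, Secisbp2l, Ppl, Kif5b, Klf3, Prpf38b, Arap2, Hpgd, Hjurp and Itch. Rif1, a regulator of replication timing and of double-strand break repair on chromosome 2 (52072832 to 52122383, GRCm38), stood at 128, 138 and 82.6 CPM in Lrig1 GL against 6.21, 6.17 and 5.07 CPM in Lgr5 GL cells (log2 difference 4.32 ± 0.46, edgeR adjusted p = 1.42e-06). The lowest Lrig1 GL library (82.6 CPM) lay far above the highest Lgr5 GL library (6.21 CPM), where the choice required only no overlap. Before injury it stood at 101, 122 and 103 CPM in Lrig1 GL and 60.6, 33.3 and 38.9 CPM in Lgr5 GL cells, so the gap at 1w pw1 went with a fall in the Lgr5 GL cells (log2 change -2.93 ± 0.44, edgeR adjusted p = 0.00111) and no called change in the Lrig1 GL cells (0.09 ± 0.39).

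Ppl encodes periplakin, a plakin of the cornified envelope and desmosomes, and stood at 110, 132 and 122 CPM in Lrig1 GL against 21.7, 13.1 and 17.6 CPM in Lgr5 GL cells (log2 difference 2.78 ± 0.42, edgeR adjusted p = 0.000335). It was not called before injury, at 79.9 to 283 and 67.8 to 137 CPM, and fell in the Lgr5 GL cells (log2 change -2.64 ± 0.41, edgeR adjusted p = 0.00165). Klf3, a Krüppel-like repressor expressed in epidermis, stood at 539, 642 and 424 CPM against 81.2, 85.6 and 59.2 CPM (2.83 ± 0.45, edgeR adjusted p = 0.000737). Itch, a ubiquitin ligase that targets Jun proteins and Notch, stood at 152, 135 and 49.5 CPM against 14.2, 5.40 and 9.42 CPM (3.5 ± 0.64, edgeR adjusted p = 0.00346). For Ppl, Klf3 and Itch alike, no Lgr5 GL library reached the lowest Lrig1 GL library, as the choice of named genes required.

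Hpgd, which degrades prostaglandins, had 125 counts in the 3 Lrig1 GL libraries (4.94, 13.2 and 53.9 CPM) and no count in the 3 Lgr5 GL libraries, where before injury it had been at 2.14, 10.2 and 23.7 CPM. Against a floor of 3 counts over the Lgr5 GL group its level was at least 122.8-fold higher in Lrig1 GL cells, a bound that covers counting error only (edgeR adjusted p = 0.00279). Kif5b, a kinesin heavy chain, stood at 439, 338 and 337 against 83.9, 101 and 134 CPM (1.80 ± 0.27, edgeR adjusted p = 0.000338). Secisbp2l and Hjurp, the latter a chaperone of the centromeric histone, were higher in Lrig1 GL cells at both times. Secisbp2l differed by 2.77 ± 0.41 at 1w pw1 and 1.95 ± 0.40 at 0w, and Hjurp by 2.01 ± 0.36 and 1.40 ± 0.36 on the log2 scale. The splicing factor gene Prpf38b and Arap2, which encodes a GTPase-activating protein, differed by 2.99 ± 0.53 and 2.08 ± 0.37 at 1w pw1 and were not called at 0w.

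**Figure D2:**
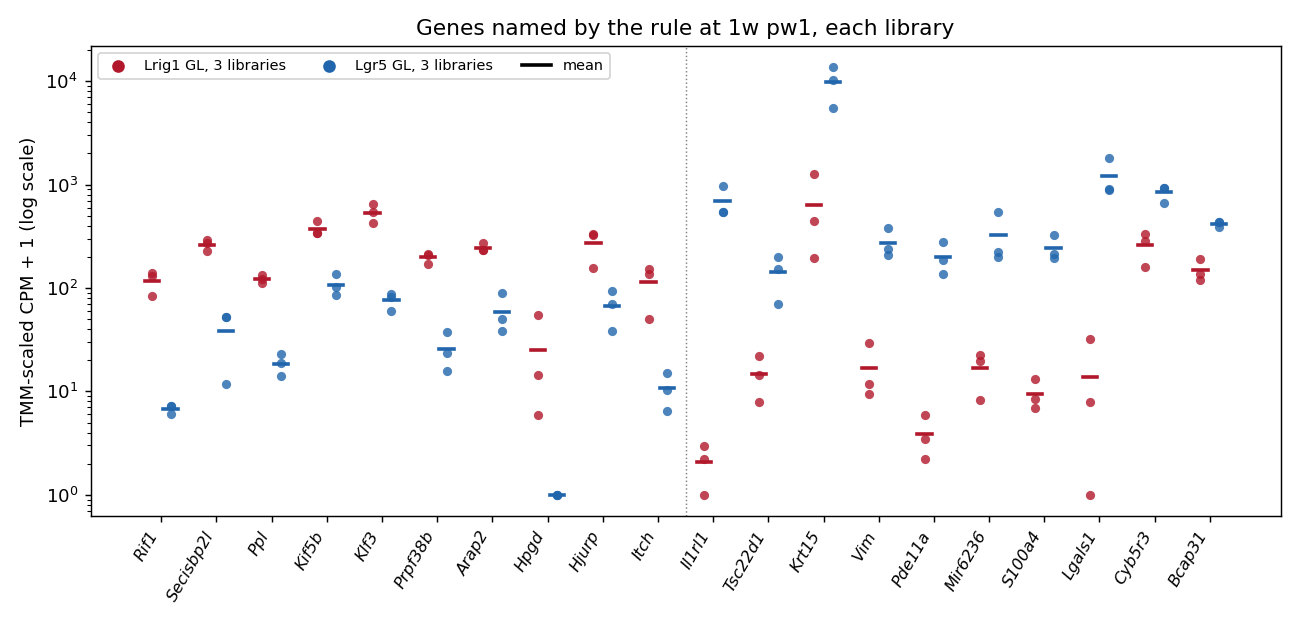
TMM-scaled CPM plus 1 on a log axis of the 20 named genes of 1w pw1, 10 higher in Lrig1 GL cells (left of the dotted line) and 10 higher in Lgr5 GL cells (right), each point a library and each bar a mean. They have the smallest p-values among called genes with a mean of at least 20 counts and no overlap between the populations. The lack of overlap is thus part of the choice.

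Chosen in the same way, the genes higher in Lgr5 GL cells were led by Il1rl1, Tsc22d1, Krt15, Vim, Pde11a, Mir6236, S100a4, Lgals1, Cyb5r3 and Bcap31. Krt15, the keratin of bulge stem cells (chromosome 11, 100131758 to 100135928), stood at 5493, 10223 and 13624 CPM in Lgr5 GL and at 194, 1266 and 446 CPM in Lrig1 GL cells (log2 difference -3.95 ± 0.53, edgeR adjusted p = 9.14e-05). It was the most abundant of the 20 named genes, and the highest Lrig1 GL library stayed below the lowest Lgr5 GL library, as the choice required. Before injury Krt15 stood at 7245, 7287 and 4127 CPM in Lrig1 GL and at 22480, 25195 and 18588 CPM in Lgr5 GL cells. From 0w it fell by 3.29 on the log2 scale in Lrig1 GL cells (edgeR adjusted p = 0.00249), and its change in Lgr5 GL cells was -1.18 ± 0.48 (edgeR adjusted p = 0.206). The difference between these changes was -2.12 ± 0.67 and did not pass the test (edgeR adjusted p = 0.152).

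Tsc22d1, a TGF-beta inducible transcription factor gene, stood at 69.7, 152 and 200 CPM in Lgr5 GL against 6.91, 13.2 and 20.8 CPM in Lrig1 GL cells (-3.32 ± 0.45, edgeR adjusted p = 9.14e-05), and was also called at 0w (-1.65 ± 0.41). Cyb5r3, a cytochrome b5 reductase, stood at 667, 927 and 934 against 158, 284 and 330 CPM (-1.71 ± 0.25, edgeR adjusted p = 0.000193). Bcap31, an endoplasmic reticulum export receptor on the X chromosome, stood at 391, 433 and 431 against 118, 189 and 134 CPM (-1.51 ± 0.23, edgeR adjusted p = 0.000392). Before injury Bcap31 had been level between the populations, at 271 to 304 CPM in Lrig1 GL and 279 to 299 CPM in Lgr5 GL cells. Its log2 change from 0w was -0.98 ± 0.23 in the Lrig1 GL cells, with 0.53 ± 0.23 in the Lgr5 GL cells, and neither was called.

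The other 6 formed a set with a shared pattern. Il1rl1, the interleukin-33 receptor, had 5150 counts in the 3 Lgr5 GL libraries of 1w pw1 and 3 counts in the 3 Lrig1 GL libraries, a ratio of 583 with a 95% exact counting interval from 199 to 2826 (edgeR adjusted p = 1.19e-07). Its level was 975, 537 and 546 CPM in Lgr5 GL and 1.97, 1.20 and 0 CPM in Lrig1 GL cells, and at 0w it was 429, 448 and 1002 CPM against at most 0.441 CPM. The intermediate filament gene Vim stood at 377, 208 and 237 CPM against 10.9, 8.43 and 28.2 CPM (-4.05 ± 0.54), and the galectin gene Lgals1 at 1812, 878 and 902 against 6.91, 0 and 31.2 CPM (-6.39 ± 0.92). The phosphodiesterase gene Pde11a differed by -6.09 ± 0.83, the S100 gene S100a4 by -4.86 ± 0.70, and reads over the annotated hairpin of Mir6236 by -4.31 ± 0.60. All 6 genes were also called higher in Lgr5 GL cells at 0w.

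In this set the first Lgr5 GL library was the highest of the 3 at 1w pw1 for every gene. Over all 18 Lgr5 GL libraries of the series, Il1rl1 ran from 189 to 1002 CPM, and Pearson's r of log2(CPM + 1) with Il1rl1 was 0.959 for Lgals1, 0.925 for Vim, 0.924 for Pde11a, 0.823 for Mir6236 and 0.821 for S100a4. The centrosomal gene Cep57l1 and the RNA polymerase III subunit gene Polr3a, chosen after their values were seen, followed at 0.912 and 0.875. For comparison r with Il1rl1 was 0.496 for Krt14, 0.207 for Krt5, 0.0982 for Krt17, -0.200 for Krt15 and -0.461 for Lgr5, all as descriptions over libraries that share depth and processing. The ratio of Lgals1 to Il1rl1 stayed between 1.20 and 2.02 and that of Vim between 0.261 and 0.519, while that of Krt15 ran from 3.90 to 138. In the 18 Lrig1 GL libraries Il1rl1 did not exceed 1.97 CPM and Pde11a did not exceed 12.5 CPM. The collagen gene Col1a1 and the arrestin gene Sag, the latter chosen after its values were seen, had r of 0.789 and 0.888 with Il1rl1. Of genes named in the Lgr5 GL table only, Sv2b had 5042, 1983 and 4385 counts, Lox 142, 55 and 194 and Prl2c2 88, 34 and 121 counts at 1w pw1. Whether the Lgr5 GL libraries hold RNA from a source other than the labelled cells was not tested, and the differences of these genes between the populations are to be read with that limit.

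Mesenchymal markers leaned the same way. Of 12 fibroblast genes listed, 9 were named in both tables and tested, and all 9 were lower in Lrig1 GL cells with a median log2 difference of -2.18, beside -0.04 over all genes tested. Col1a1, the main chain of type I collagen, and the surface glycoprotein gene Thy1 were called, beside 1.55% of all genes tested called higher in Lgr5 GL cells. Col1a1 stood at 65.2, 40.1 and 43.5 CPM in Lgr5 GL against 0, 1.20 and 1.98 CPM in Lrig1 GL cells (-5.34 ± 1.02, edgeR adjusted p = 0.00514). The summed level of the list ran from 482 to 838 CPM in Lgr5 GL and from 110 to 452 CPM in Lrig1 GL libraries, and Lum, Mfap5 and Pdgfrb were not among the genes named in both tables. The summed level of the smooth and skeletal muscle list ran from 255 to 587 against 18.8 to 94.5 CPM with none of the 5 genes tested called, and that of the immune list, 5 of 16 genes, from 2.90 to 104 against 3.61 to 26.7 CPM. None of the 5 melanocyte, 3 endothelial or 4 Merkel cell genes tested was called, beside 3.6% of all genes tested. The part of other cells in the difference between populations was not tested.

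Krt15, Tbx1 and Shisa2 were the bulge genes that differed. Of 27 bulge and lower HF genes tested, 3 were called, all higher in Lgr5 GL cells, and the median log2 difference was -1.55. Over all genes tested 1.55% were called higher in Lgr5 GL cells, and the median was -0.04. Shisa2, an attenuator of Wnt and FGF receptors, stood at 136, 321 and 608 CPM in Lgr5 GL against 23.7, 68.6 and 46.5 CPM in Lrig1 GL cells (-2.95 ± 0.73, edgeR adjusted p = 0.022). Tbx1, a transcription factor of bulge stem cell quiescence, stood at 53.7, 161 and 269 against 5.92, 38.5 and 82.6 CPM, so the groups overlapped although the gene passed (-1.90 ± 0.55, edgeR adjusted p = 0.0493). It was called in 6 of 20 alternatives. The summed level of the list was 8912 to 19207 CPM in Lgr5 GL and 2242 to 3697 CPM in Lrig1 GL libraries. Before injury these ranges had been 24940 to 36521 and 8115 to 12808 CPM, so the sum was lower at 1w pw1 in both populations and stayed apart between them.

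Of 16 JZ and INFU genes tested, 2 were called and both were higher in Lrig1 GL cells, with a median log2 difference of 1.13. Over all genes tested 2.05% were called higher in Lrig1 GL cells, and the median was -0.04. The summed level of the list overlapped, at 6201 to 13785 CPM in Lrig1 GL and 4663 to 19100 CPM in Lgr5 GL libraries. At 0w the list median had been 1.40, beside -0.05 over all genes. The difference in change had a median of -0.72, beside 0.06, with 7 genes positive and 9 negative. Gata6, the transcription factor of JZ and sebaceous duct cells, had 150 counts in Lrig1 GL (20.7, 30.1 and 51.5 CPM) and 3 counts in Lgr5 GL libraries, 1 in each, a ratio of 147 with a 95% exact counting interval from 49.5 to 722 (edgeR adjusted p = 0.007). Nebl, an actin-binding protein of the nebulin family, stood at 98.7, 60.2 and 115 CPM against 0.444, 0 and 17.2 CPM (3.77 ± 0.83, edgeR adjusted p = 0.0108). Before injury neither was called, whereas Ly6a, the Sca-1 antigen of the INFU, was called at 0w (350, 202 and 452 against 4.28, 4.84 and 80.6 CPM) and was not at 1w pw1 (813, 482 and 572 against 1133, 279 and 422 CPM). Ly6a rose in Lgr5 GL cells by 4.39 ± 0.92 on the log2 scale (edgeR adjusted p = 0.0191), the difference between the changes being -3.49 ± 1.17 (edgeR adjusted p = 0.165). Of 16 sebaceous gland genes 1, the fatty acid desaturase Scd1, was called at 1w pw1 (128, 105 and 225 against 18.2, 13.1 and 87.0 CPM, edgeR adjusted p = 0.0465) and 5 had been called at 0w. All were higher in Lrig1 GL cells, beside 2.05% of all genes tested at 1w pw1 and 1.06% at 0w. Scd1 was called in 7 of 20 alternatives. The summed sebaceous level at 1w pw1 overlapped, at 804 to 1174 CPM in Lrig1 GL and 507 to 937 CPM in Lgr5 GL libraries. The sebaceous median was 0.75 at 1w pw1 and 2.13 at 0w, and -1.05 for the difference in change.

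Of 24 genes of the suprabasal IFE tested, 7 were called, all higher in Lrig1 GL cells: Krt1, Krt10, Mt4, Dsg1a, Dsc1, Notch3 and Pof1b. Over all genes tested 2.05% were called higher in Lrig1 GL cells. The median log2 difference of the list was 0.93, beside -0.04 over all genes. At 0w the list median had been 1.53, beside -0.05 over all genes. The difference in change had a median of -0.02, beside 0.06 over all genes, with 12 genes positive and 12 negative. At 1w pw1 the summed level of the list was 13892 to 18043 CPM in Lrig1 GL against 4809 to 7226 CPM in Lgr5 GL libraries. Krt10, the acidic keratin of spinous cells, stood at 3512, 4177 and 2454 CPM against 265, 37.0 and 81.2 CPM (4.72 ± 0.99, edgeR adjusted p = 0.00766). Its partner Krt1 stood at 4483, 4864 and 3670 against 428, 64.0 and 472 CPM (3.75 ± 1.07, edgeR adjusted p = 0.045). The desmosomal cadherin gene Dsc1 stood at 69.1, 86.7 and 58.4 against 4.44, 0 and 4.11 CPM (4.51 ± 0.98, edgeR adjusted p = 0.00966), and Dsg1a differed by 2.2 ± 0.50. Krt1 and Krt10 had been called in the same direction at 0w, where Krt1 stood at 12.3 to 34.7 CPM in Lgr5 GL cells. The other 5 had not. Krtdap and Calm4 were called higher in Lrig1 GL cells at 0w and were not called at 1w pw1. Krt1, Notch3 and Pof1b were no longer called with the length trend of each library removed (edgeR adjusted p = 0.0627, 0.0592 and 0.134). Krt1 and Pof1b were called in 7 of 20 alternatives each. Krtdap, a secreted differentiation marker, stood at 1523 to 2213 CPM in Lrig1 GL and 903 to 1605 CPM in Lgr5 GL cells and was not called, having risen in the Lgr5 GL cells from 129 to 393 CPM at 0w (edgeR adjusted p = 0.0217).

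Basal layer genes leaned the other way, with 4 of 18 called and all 4 higher in Lgr5 GL cells: the matrix genes Thbs1 and Sparc, the laminin chain Lamb3 and the laminin receptor Bcam. The median log2 difference of the list was -0.48, beside -0.04 over all genes tested, of which 1.55% were called higher in Lgr5 GL cells. Lamb3 stood at 628, 307 and 539 CPM in Lgr5 GL against 170, 212 and 234 CPM in Lrig1 GL cells (-1.26 ± 0.30, edgeR adjusted p = 0.0155). Lamb3, Sparc and Bcam were called in the same direction at 0w, with log2 differences of -1.52, -1.98 and -1.53. The part of other cells in the differences of Thbs1 and Sparc was not tested. Bcam was called in 8 of 20 alternatives at 1w pw1. Krt14 did not separate the populations, at 17335, 18315 and 21291 CPM against 22421, 16477 and 19585 CPM (-0.04 ± 0.27). Of 24 companion layer, inner root sheath and hair shaft genes tested none was called at 1w pw1, beside 3.6% of all genes tested.

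**Figure D3:**
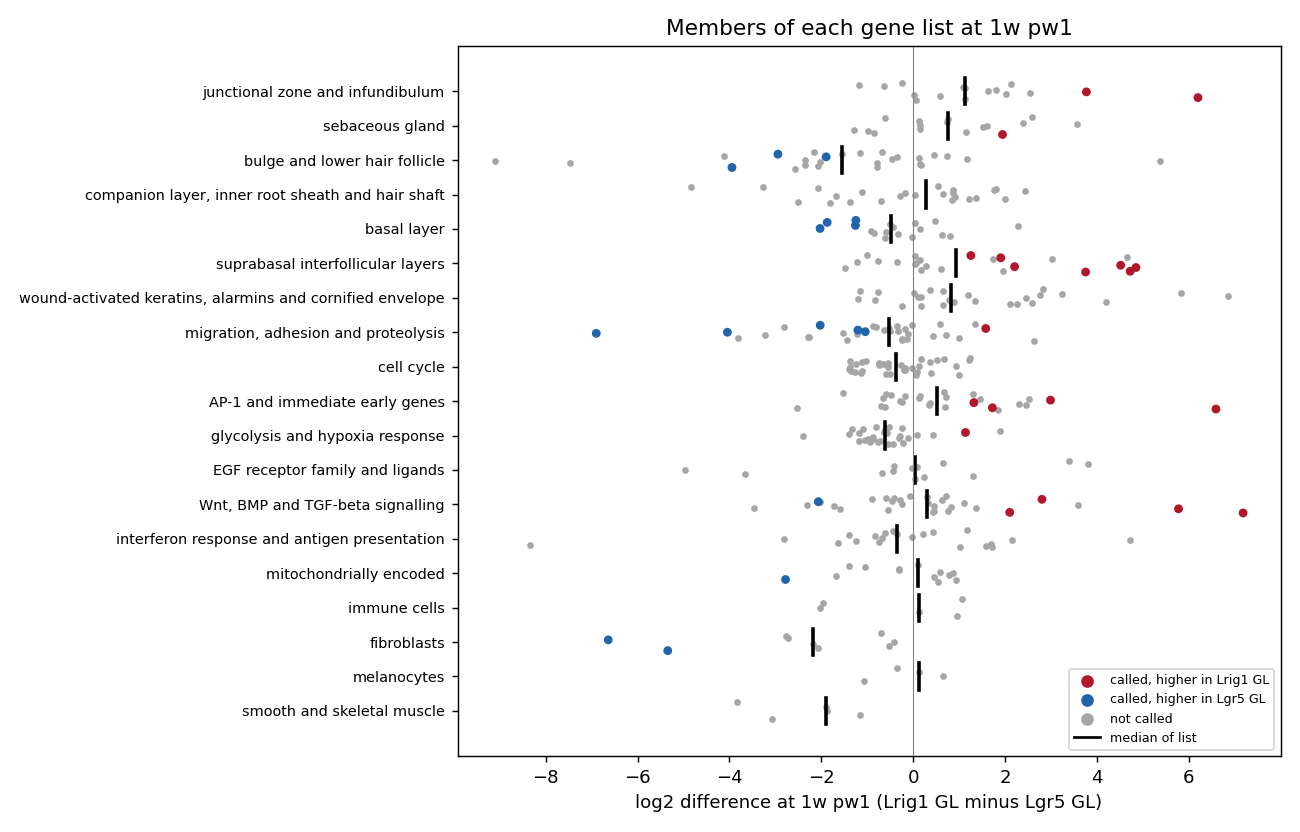
Log2 difference between Lrig1 GL and Lgr5 GL cells at 1w pw1 (x axis) for each tested gene of the lists with at least 5 tested genes (rows), with called genes in red or blue and the median of each list as a black bar. The suprabasal list has its 7 called genes to the right of 0, and the bulge list its 3 to the left.

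Genes of migration, adhesion and proteolysis had 6 of 33 tested genes called, 5 higher in Lgr5 GL (Fn1, Vim, Actn1, Tpm1 and Lasp1) and 1, the hyaluronan receptor Cd44, higher in Lrig1 GL cells. Over all genes tested 1.55% were called higher in Lgr5 GL and 2.05% higher in Lrig1 GL cells. The median log2 difference of the list was -0.53, beside -0.04 over all genes. At 0w its median had already been -0.74, beside -0.05 over all genes. There 6 of the 33 were called, all higher in Lgr5 GL cells, beside 1.6% of all genes tested. The difference in change from 0w leaned the other way, with a median of 0.67 beside 0.06, and 23 genes positive and 10 negative. Cd44 stood at 919, 959 and 839 CPM against 294, 324 and 292 CPM (1.58 ± 0.36, edgeR adjusted p = 0.0127), with little spread within each population. Fn1, the fibronectin gene, had 483 counts in Lgr5 GL and 2 in Lrig1 GL libraries, a ratio of 82.0 with a 95% exact counting interval from 22.6 to 679 (edgeR adjusted p = 0.00327). The actin regulators Actn1, Tpm1 and Lasp1 differed by -1.05 ± 0.30, -1.21 ± 0.31 and -2.03 ± 0.40. Actn1 was called in 4 of 20 alternatives and lost its call without any 1 of the 6 libraries. Vim belongs to the set that moved with Il1rl1. The part of other cells in the differences of Fn1, Actn1 and Tpm1 was not tested.

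Of 28 AP-1 and immediate early genes tested 4 were called, all higher in Lrig1 GL cells, beside 2.05% of all genes tested. The median log2 difference of the list was 0.52, and 10 of the 28 were lower in Lrig1 GL cells. A p under 0.05 before adjustment (edgeR quasi-likelihood test) was found for 6 of the 28, beside 20.8% of all genes tested. The 4 called genes stayed called with the length trend removed and none did in the fits over 12 or 6 libraries. Fosb lost its call without any 1 of 5 libraries, Ier2 without any 1 of 4 and Fosl2 without the third Lgr5 GL library. Zfp36, which encodes the mRNA decay factor tristetraprolin, stood at 377, 144 and 740 CPM against 46.6, 42.4 and 69.6 CPM (2.99 ± 0.57, edgeR adjusted p = 0.00482). Fosl2 stood at 333, 456 and 449 against 209, 91.8 and 74.4 CPM (1.72 ± 0.36, edgeR adjusted p = 0.00803), and Ier2 at 1110, 473 and 527 against 249, 297 and 300 CPM (1.32 ± 0.36, edgeR adjusted p = 0.0394). Fosb had 169 counts against 2, a ratio of 249 with a 95% exact counting interval from 67.9 to 2073, and the third Lrig1 GL library held most of them (9.87, 6.02 and 76.2 CPM). None of these 4 was called at 0w. In the Wnt, BMP and TGF-beta list 5 of 30 were called, beside 3.6% of all genes tested, and the median log2 difference was 0.31. The ligand genes Wnt4 (110, 220 and 86.1 against 50.2, 24.7 and 21.7 CPM), Wnt3, Wnt16 and Tgfb2 were higher in Lrig1 GL cells, and the BMP target Id3 was lower (42.5, 50.6 and 15.8 against 65.2, 212 and 170 CPM). Wnt3, Tgfb2 and Id3 lost their calls with the length trend removed (edgeR adjusted p = 0.0662, 0.074 and 0.052). Over all lists, 36 genes were called at 1w pw1, and 11 of them stayed called without each of the 6 libraries in turn: Krt15, Krt10, Dsc1, Gata6, Nebl, Cd44, Fn1, Vim, Lasp1, Zfp36 and Col1a1. Krt1 and Actn1 lost their calls without any 1 of the 6.

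The lists of wound-activated keratins, alarmins and cornified envelope genes (26 tested), cell cycle (34), EGF receptor family and ligands (13) and interferon response (21) had none called at 1w pw1 by the edgeR quasi-likelihood test, with 4, 6, 5 and 3 genes at a p under 0.05 before adjustment, beside 20.8% of all genes tested at that p and 3.6% called. Of these counts, 4 of 26, 6 of 34 and 3 of 21 lay below the share of all genes, and 5 of 13 in the EGF list above it. The lists were not tested as sets. The median log2 difference of the wound list was 0.83, with 21 of 26 genes higher in Lrig1 GL cells, and the median of its difference in change was 1.22. The cell cycle list had a median of -0.38 at 1w pw1 and 0.91 at 0w, where Aurkb, Hmgb2, Ccnd1 and Ccnd2 were called higher in Lrig1 GL cells, and 32 of its 34 genes had a negative difference in change (median -1.10). The medians of the EGF and interferon lists were 0.04 and -0.36, beside -0.04 over all genes. Krt6a stood at 3332, 1788 and 3363 CPM in Lrig1 GL and at 3515, 2643 and 3907 CPM in Lgr5 GL cells (log2 difference -0.25 ± 0.44), and Krt6b at 1743, 349 and 1149 against 1314, 808 and 753 CPM (0.17 ± 0.61). The Krt6 pair and the Sprr2a genes are near-identical copies, so reads may be split between them. A missed threshold does not show these levels to be equal.

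The comparison of 1w pw1 with 0w called 57 genes in Lrig1 GL cells (0.342% of those tested, 0.222% up and 0.12% down) and 184 in Lgr5 GL cells (1.1%, 0.577% up and 0.528% down). Of these 15 were called in both, all in the same direction, which is 26.3% of the Lrig1 GL and 8.15% of the Lgr5 GL changes. The 13 that rose in both were Krt6b, Sprr2a1, Sprr2a3, the cathepsin gene Ctsc, Rab31, Serinc2, Tubb6, a transcript named 2610528A11Rik and the glucose metabolism genes Slc2a1, Pfkl, Pkm, Ldha and Slc16a3. The 2 that fell were the scavenging chemokine receptor gene Ackr4 and Kank1. Krt6b rose from 69.4, 90.0 and 37.6 CPM in Lrig1 GL and from 147, 181 and 159 CPM in Lgr5 GL cells, with log2 changes of 4.03 ± 0.70 and 2.56 ± 0.65. The difference in change was called for none of the 15. The smallest p was that of Rab31, a small GTPase gene, which rose by 5.71 ± 0.69 in the Lrig1 GL cells and by 2.18 ± 0.54 in the Lgr5 GL cells, a difference of 3.53 ± 0.84 that missed the threshold (edgeR adjusted p = 0.0731).

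The glycolysis and hypoxia list had 1 of 30 genes called between the populations at 1w pw1, beside 3.6% of all genes tested. Of the 30 genes 26 were lower in Lrig1 GL cells, with a median log2 difference of -0.62 beside -0.04 over all genes. The called gene, the carbonic anhydrase gene Car12, went the other way (1289, 1752 and 1803 against 851, 638 and 726 CPM, 1.13 ± 0.27, edgeR adjusted p = 0.0166). It was called in 10 of 20 alternatives, and not with the length trend removed (log2 difference 0.92). From 0w, 5 of the 30 rose in the Lrig1 GL cells. The Lgr5 GL cells raised 8, which included those 5. Slc2a1, the glucose transporter GLUT1, went from 118, 226 and 155 to 769, 1055 and 837 CPM in Lrig1 GL cells (log2 change 2.41 ± 0.46) and from 219, 181 and 64.5 to 2415, 619 and 854 CPM in Lgr5 GL cells (3.06 ± 0.47). Ldha, lactate dehydrogenase A, rose by 1.63 ± 0.30 and 1.51 ± 0.30, pyruvate kinase Pkm by 1.26 ± 0.29 and 1.37 ± 0.29, and phosphofructokinase Pfkl by 2.82 ± 0.53 and 2.21 ± 0.50. Slc16a3, the lactate exporter MCT4, had 2 counts in the 3 Lrig1 GL libraries at 0w and 283 at 1w pw1, and in Lgr5 GL cells it went from 6.42, 0 and 0.949 CPM to 747, 68.6 and 157 CPM. At 1w pw1 the first Lgr5 GL library was the highest of all 6 for Slc2a1, Ldha, Pkm, Pfkl and Slc16a3.

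Since these 5 genes rose together in both populations, the 250 bases before their RefSeq start (GRCm38.p6, first entry of each gene) are shown 5′ to 3′ on the strand of the gene, with ACGTG and GCGTG, the core letters bound by hypoxia-inducible factors, and their reverse complements in capitals. The core ACGTG overlaps the E-box CACGTG.
Slc2a1 (chr4:119108495-119108744, plus strand): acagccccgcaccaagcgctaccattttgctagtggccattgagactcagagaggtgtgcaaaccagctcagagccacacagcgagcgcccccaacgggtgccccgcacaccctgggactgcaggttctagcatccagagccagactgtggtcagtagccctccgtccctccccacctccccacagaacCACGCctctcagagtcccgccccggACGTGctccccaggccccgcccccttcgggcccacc
Pfkl (chr10:78009808-78010057, minus strand): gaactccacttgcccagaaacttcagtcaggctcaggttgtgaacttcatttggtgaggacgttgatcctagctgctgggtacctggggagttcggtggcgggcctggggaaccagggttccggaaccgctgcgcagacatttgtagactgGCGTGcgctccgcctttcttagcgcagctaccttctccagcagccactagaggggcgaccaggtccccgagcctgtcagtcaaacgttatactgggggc
Pkm (chr9:59656326-59656575, plus strand): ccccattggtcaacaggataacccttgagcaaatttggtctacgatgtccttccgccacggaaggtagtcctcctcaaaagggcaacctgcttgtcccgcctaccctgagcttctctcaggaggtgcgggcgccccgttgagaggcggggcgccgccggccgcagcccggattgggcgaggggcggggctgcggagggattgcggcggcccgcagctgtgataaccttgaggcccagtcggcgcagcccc
Ldha (chr7:46845554-46845803, plus strand): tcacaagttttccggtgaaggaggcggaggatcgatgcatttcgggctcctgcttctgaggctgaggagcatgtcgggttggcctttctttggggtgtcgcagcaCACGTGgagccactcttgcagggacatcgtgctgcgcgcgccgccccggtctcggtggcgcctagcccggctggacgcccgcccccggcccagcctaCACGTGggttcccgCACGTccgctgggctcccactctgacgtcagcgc
Slc16a3 (chr11:120948817-120949066, plus strand): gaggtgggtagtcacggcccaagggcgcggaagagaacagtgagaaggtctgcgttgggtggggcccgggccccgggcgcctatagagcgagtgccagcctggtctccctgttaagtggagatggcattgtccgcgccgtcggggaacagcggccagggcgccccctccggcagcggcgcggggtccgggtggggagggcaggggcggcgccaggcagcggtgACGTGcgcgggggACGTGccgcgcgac

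Slc2a1 held 2 matches, Pfkl 1, Slc16a3 2, Ldha 5 and the first entry of Pkm 0, where the second entry held 1. Such a match stood in 70.4% of the promoters of the 27 list genes with an entry, in 56.5% of those of 10467 tested genes and in 38.6% of all 27025 promoters of the table, so it is common in promoters of expressed genes and is given as a description only.

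**Figure D4:**
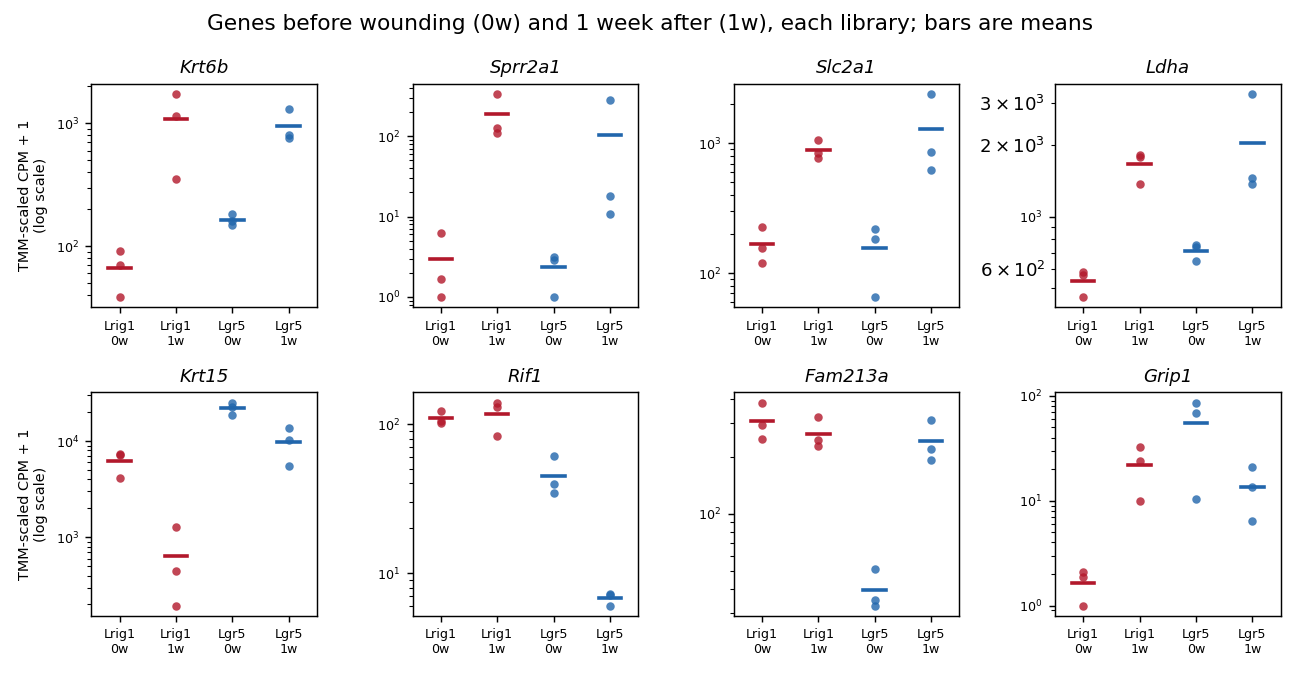
TMM-scaled CPM plus 1 on a log axis of 8 genes at 0w and at 1w pw1 in Lrig1 GL (red) and Lgr5 GL cells (blue), each point a library and each bar a mean. Krt6b, Sprr2a1, Slc2a1 and Ldha are higher at 1w pw1 in both populations, Rif1 is lower at 1w pw1 in Lgr5 GL cells, and Fam213a is higher there.

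A difference in the change itself was called for 8 genes, or 0.048% of those tested, at an adjusted p under 0.05, 5 (0.03%) changing more positively in the Lrig1 GL cells and 3 (0.018%) in the Lgr5 GL cells. A difference tied to the table that is equal at both times cancels in this comparison. Grip1, a scaffold protein gene, went from 1.10, 0.882 and 0 to 8.89, 31.3 and 22.8 CPM in Lrig1 GL cells and from 9.48, 67.4 and 85.4 to 19.97, 5.40 and 12.6 CPM in Lgr5 GL cells (difference in log2 change 6.88 ± 1.17, edgeR adjusted p = 0.0323). Rif1 also had the more positive change in Lrig1 GL cells, with a difference in log2 change of 3.02 ± 0.58 (edgeR adjusted p = 0.0457). It was called in 12 of 24 alternatives, and with the length trend removed the value was 2.15 (edgeR adjusted p = 0.064).

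The redox gene Fam213a, the dehydrogenase gene Dhrs7 and the ribosomal protein pseudogene Rpl14-ps1 changed the other way. Fam213a stood at 384, 292 and 246 CPM in Lrig1 GL and 50.2, 31.9 and 34.1 CPM in Lgr5 GL cells before injury, and at 243, 320 and 225 against 190, 309 and 218 CPM at 1w pw1. The Lgr5 GL cells had thus come up to the Lrig1 GL level (difference in log2 change -2.85 ± 0.53, edgeR adjusted p = 0.0457). Dhrs7 rose in Lgr5 GL cells from 11.9, 10.2 and 11.9 to 262, 38.6 and 44.7 CPM. Rpl14-ps1, which may share reads with Rpl14, went from 126, 154 and 143 to 468, 275 and 327 CPM in Lgr5 GL cells and from 430, 296 and 367 to 204, 272 and 282 CPM in Lrig1 GL cells, and was not called with the length trend removed (edgeR adjusted p = 0.0765). Tpcn2 and Gm26910 were named after their values were seen. Tpcn2 went from 0, 0.441 and 0 to 20.7, 20.5 and 2.47 CPM in Lrig1 GL and from 22.9, 7.11 and 25.6 to 8.88, 1.54 and 0.242 CPM in Lgr5 GL cells. Gm26910 had 0 counts in Lrig1 GL cells at 0w and in Lgr5 GL cells at 1w pw1, and 36 and 88 counts in the other two groups. The number of calls moved with the method: edgeR fits over the 12 libraries of 0w and 1w pw1 or with 2 surrogate variables called 0 genes, where 1319 and 1663 genes had a p under 0.05 before adjustment, and DESeq2 called 461.

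The called genes also differed in features that did not enter the test. The median transcript length was 4892 bases for the 341 genes higher in Lrig1 GL, 1766 bases for the 258 higher in Lgr5 GL cells and 2918 bases for all genes tested, and their median GC content was 45.1, 53.0 and 49.1%. Protein-coding genes made up 85.6% of the former, 65.9% of the latter and 75.7% of all. Across 6 bins of transcript length with nearly equal numbers of genes, the median log2 difference at 1w pw1 climbed from -0.65 in the shortest to 0.53 in the longest bin. At 0w the medians lay between -0.10 and 0.00. The change from 0w fell from 0.56 to -0.54 over the same bins in Lgr5 GL cells and went from -0.15 to 0.08 in the Lrig1 GL cells, the difference in change going from -0.74 to 0.63, so the length trend at 1w pw1 moved with the Lgr5 GL libraries of that time point.

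**Figure D5:**
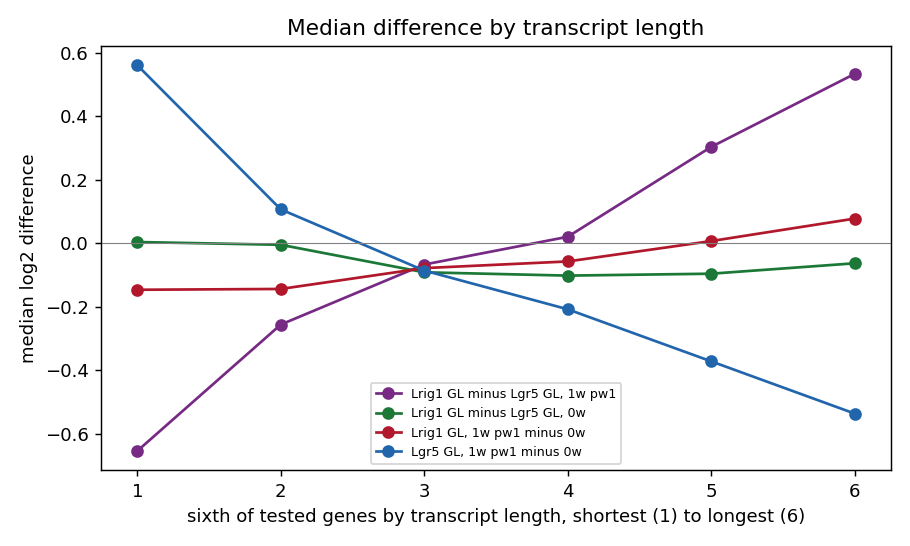
Median log2 difference (y axis) of the tested genes in 6 bins of transcript length, shortest to longest (x axis), for the populations at 1w pw1 and at 0w and for the change in each population. The line of 1w pw1 climbs from -0.65 to 0.53 and the line of the change in Lgr5 GL cells falls from 0.56 to -0.54.

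The longest bin held 17.2, 22.02 and 17.3% of the counts of the Lrig1 GL libraries at 1w pw1 and 12.5, 13.3 and 11.1% of those of the Lgr5 GL libraries. The nuclear RNA Malat1, chosen after its values were seen, followed: it stood at 4084, 5000 and 4531 CPM in Lrig1 GL against 806, 630 and 597 CPM in Lgr5 GL cells. With the length trend of each library removed, 397 genes were called at 1w pw1, 199 higher in Lrig1 GL and 198 higher in Lgr5 GL cells, and 350 of them were among the 599. All 20 named genes stayed among those calls. The medians of the bulge, JZ and INFU and suprabasal lists became -1.86, 1.27 and 1.12. Those of the Wnt, BMP and TGF-beta list, the interferon list and the EGF list changed sign, from 0.31 to -0.07, from -0.36 to 0.02 and from 0.04 to -0.25, and Postn of the JZ and INFU list was then called lower in Lrig1 GL cells. The part of transcript length in the single differences was otherwise not tested.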

How the data were processed

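Per the study's methods, mini-bulk RNA-seq libraries were made from small numbers of sorted tdTomato+ cells and amplified as in a modified Smart-seq2 protocol. Per the labels and the study's methods, the authors trimmed reads with Trim Galore 0.5.0, aligned them with HISAT2 to GRCm38 (mm10) and counted exons by gene name with featureCounts on GENCODE M20, and deposited raw counts in 1 table per population. The tables were joined by gene name, and Gm12415 was left out before scaling. In R 4.3.3, edgeR 4.0.16 was fitted over all 36 libraries in 12 groups (TMM scaling, filterByExpr with a minimum count of 10, quasi-likelihood F-test, Benjamini-Hochberg adjustment over 16652 genes). A gene was called at an adjusted p under 0.05 and a log2 difference above 1 in size, and for the difference in change at the adjusted p alone. Values after ± are approximate standard errors of log2 values, computed as the size of the log2 value over the square root of its F statistic. Columns of 15 libraries matched a sample by number and 21 by group only.

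Named were Lrig1 and Lgr5, genes of the lists, and genes chosen by p. In each direction the latter were the 10 called genes of 1w pw1 with the smallest p and a mean of at least 20 counts. No overlap between the populations was also required of them. Genes of the difference in change were chosen by p and mean count alone, with no rule on overlap. Among them, Grip1 and Fam213a overlapped between the populations at 1w pw1. The members and lists were chosen with earlier results of these data known. Coordinates come from GENCODE M21 (GRCm38), in which 18753 names matched. Alternatives used DESeq2 1.42.0, sva 3.50.0 and limma 3.58.1. The trends of transcript length were removed after the data had been seen. Each removal of a length or GC trend also brought the libraries to a common mean of log2(CPM + 1). Intervals of count ratios are exact 95% intervals that treat reads as independent. Like floors of 3 counts, they cover the counting error of reads only, not that of cells or molecules before amplification. At 1w pw1 a floor of 3 counts was 1.50 to 3.93 CPM in Lrig1 GL and 0.695 to 2.48 CPM in Lgr5 GL libraries. The fit was tested on simulated data, in which it missed most changed genes. At 1w pw1 it recovered 15.6% of genes changed by 2 and 44% of those changed by 3 on the log2 scale. For the difference in change it recovered 3.3% and 17.4%. A gene that was not called may thus still differ. Of the genes of the difference in change, 1 is not reported here.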

Additional observations from a re-analysis of the deposited data

Results flagged for a closer look

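A test of the difference between the populations in their change over the first week passed for Grip1 (edgeR adjusted p = 0.0323) and for Rif1, Fam213a, Dhrs7, Rpl14-ps1, Tpcn2 and Gm26910 (edgeR adjusted p = 0.0457 for each).

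Outside the genes compared, Gm12415 took 12.04 to 49.7% of the counts of the Lgr5 GL libraries of 1w pw1 and had no count in the Lrig1 GL libraries. Sv2b, a synaptic vesicle gene named in the Lgr5 GL table only, had 1983 to 5042 counts in those libraries, and its level in Lrig1 GL cells was not analysed here.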

How the results depend on the processing

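All 20 named genes of 1w pw1 stayed called with DESeq2, with other scaling and filters, with trends of GC and transcript length removed and without each library in turn, while 15 stayed called in the fit over 12 libraries, 18 with 2 surrogate variables, and of 19 tested 10 in the fit over 6 libraries and 5 with the replicate block. None of their 398 values changed direction. These genes were chosen by smallest p and no overlap in the same libraries, so their stability is in part set by the choice. Of 676 values of the called list genes 267 no longer passed, and of 144 values of the genes of the difference in change 65. At 1w pw1 the 599 calls became 1344 with the edgeR likelihood ratio test, 1441 with DESeq2, 29 and 31 over 12 and 6 libraries, 397 and 346 with the length trend and with the length and GC trends removed, and 90 with 2 surrogate variables. Leaving out 1 library gave 230 to 427 calls: 241, 230 and 366 without Lrig1 GL replicates 1, 2 and 3, and 327, 427 and 266 without Lgr5 GL replicates 1, 2 and 3. The 444 calls of 0w became 963, 1029 and 79 with the likelihood ratio test, DESeq2 and 12 libraries, and 219 to 484 without 1 library. These included 219 without Lrig1 GL replicate 1, and 256 and 220 without the first and the second Lgr5 GL library of 0w. The share of 0w calls higher in Lrig1 GL cells went from 39.9% to 63.3, 65.3 and 67.3% with the GC, the length and both trends removed, while the median of all genes went from -0.05 to 0.17, 0.16 and 0.17. These fits also rescaled each library, so trend and scaling cannot be told apart in them.

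The 8 genes of the difference in change became 409 with the likelihood ratio test, 461 with DESeq2, 4 with thinned Lgr5 GL counts, 1 with no filter, and 0 over 12 libraries or with 2 surrogate variables. They became 0 to 178 without 1 library, the most without Lrig1 GL replicate 2 of 0w, and 0 without Lrig1 GL replicate 1 of 0w or replicate 2 of 1w pw1, where edgeR gave 2177 and 2126 genes at an unadjusted p under 0.05. Their median of all genes moved from 0.06 to -0.24, -0.27 and -0.26 with the GC, the length and both trends removed. The Lrig1 difference of 0.06 at 1w pw1 turned to -0.0058 with a minimum count of 30, -0.26 with the length trend removed, -0.16 with 2 surrogate variables, -0.17 without Lrig1 GL replicate 3 and -0.07 without Lgr5 GL replicate 1, and was not called in any of these fits. Leaving out 1 library gave -0.17 to 0.32. The cause of these changes was not tested.

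A replicate block over the 6 libraries of 1w pw1 left 8 calls. Same-numbered libraries shared only a number, with correlations of their deviations of 0.030, 0.051 and -0.0040. No paired analysis was possible for the difference in change because the Lgr5 GL columns of 0w carry numbers that differ from the labels. The depth of 764021 to 4317429 counts limits what can be seen of genes near the floor of 3 counts.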
